A study of Drosophila melanogaster with 32 samples.

Results

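The genes y, ac, sc, l(1)sc and ase lie side by side near the tip of the Drosophila melanogaster X chromosome, next to a known endogenous Su(Hw) insulator. They are 5 of 17684 annotated genes on the chromosome arms. All peaks between X 346509 and 473176 were taken, which is the stretch from the lowest start to the highest end of these genes widened by 10 kb. This window of 126.7 kb held 31 of the 113005 peaks of 24 lists, and overlapping peaks merged into 5 of 14164 sites. The lists hold ChIP-seq peaks, places where DNA bound by a given protein was enriched, from Kc167 cells, a line derived from Drosophila embryos and labelled female. Cells labelled M1BPKD had received double-stranded RNA against M1BP (20 µg) and those labelled Cp190KD double-stranded RNA against Cp190 (12 µg), followed by 5 days of culture. M1BP, CP190, Su(Hw) and Mod(mdg4) were mapped in M1BPKD cells and in mock-treated cells (mock). M1BP and CP190 were also mapped in Cp190KD cells and in a second set of mock-treated cells (mock2). Each of these 12 groups had 2 libraries, and the labels do not say whether they came from separate cultures.

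y encodes a secreted protein needed for black cuticle pigment. ac, sc, l(1)sc and ase encode basic helix-loop-helix transcription factors of the achaete-scute complex, which gives cells the potential to become neural precursors. Among them, ac and sc share enhancers spread over the complex. Su(Hw) is a zinc-finger protein that binds insulator DNA, and CP190 and Mod(mdg4) are BTB-domain partners found with it on insulators, elements that limit which promoter an enhancer can reach. M1BP, also with zinc fingers, is a factor of core promoters that carry the Motif 1 element.

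A single site in the window carried Su(Hw), CP190 and Mod(mdg4) together under the same treatment, and it lay just past the end of y. It spanned X 361009 to 362572, between y (X 356509 to 361245) and the noncoding RNA gene lncRNA:yar (X 362399 to 367072). Its median summit, 361610, lay 365 bp past the end of y and 789 bp before the start of lncRNA:yar, inside the 154151 bp span of CG32816, a gene that covers most of the window. Exons are not given in the gene table used. All 16 lists of these 3 proteins had a peak there, and none of the 8 M1BP lists did. The edge of the peak ran into y by 2 to 237 bp in 14 of the lists, but no summit lay inside y. The peaks of the Cp190KD libraries stopped short of it.

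**Figure D1:**
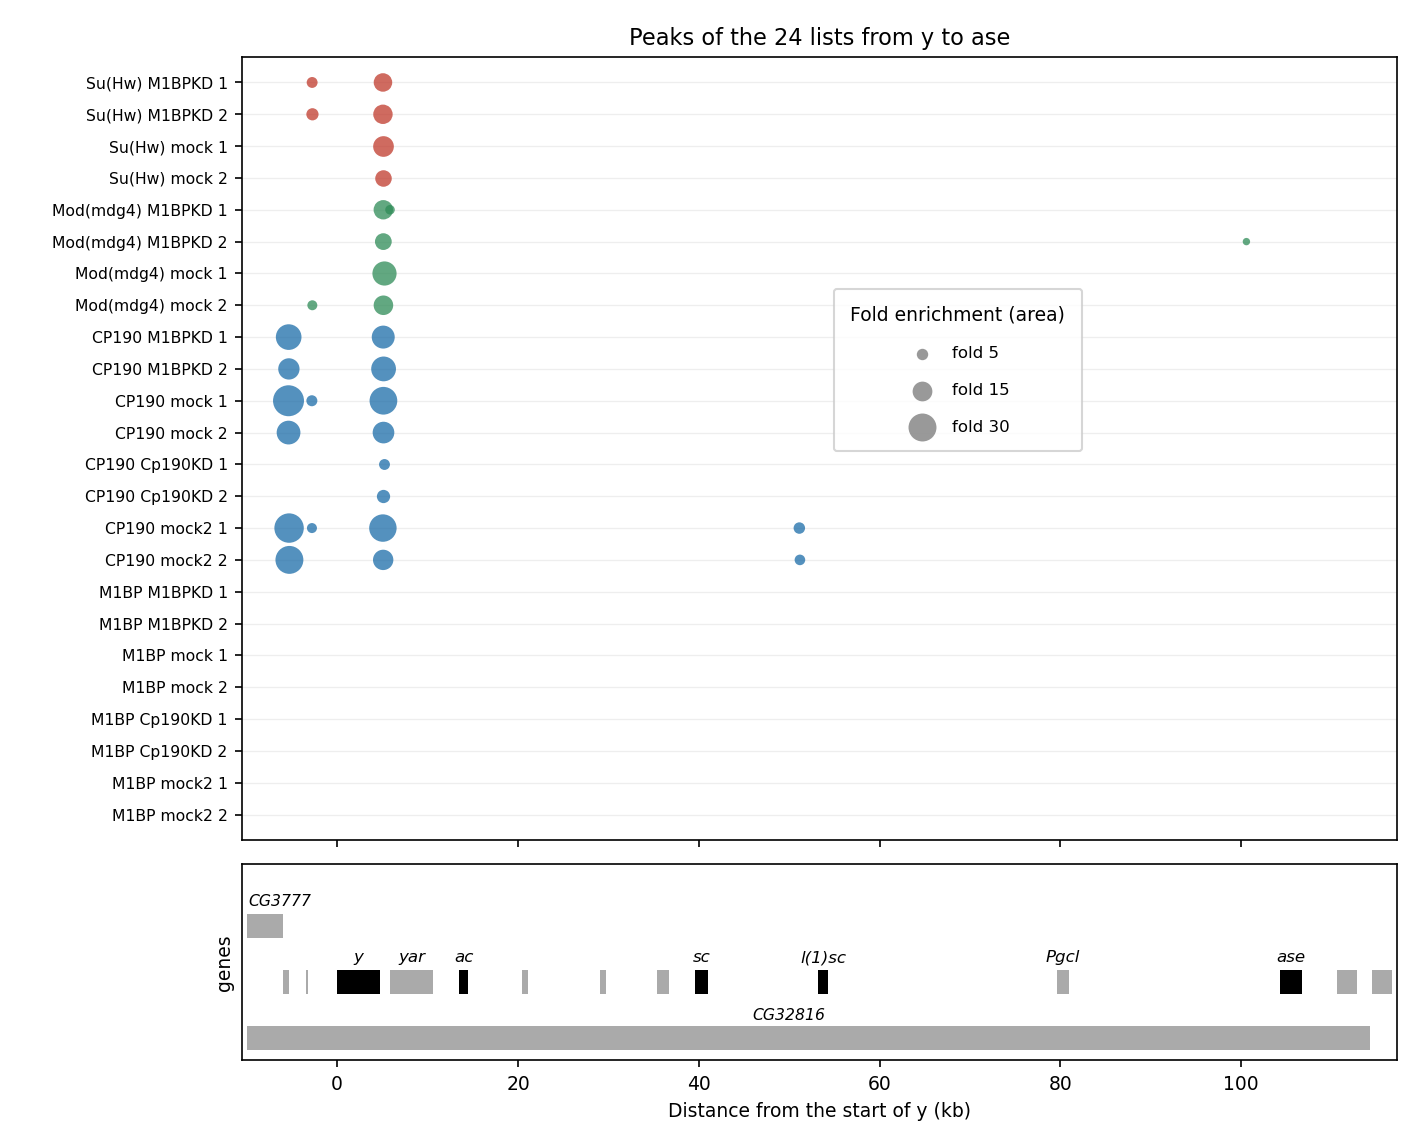
Peaks in the window from y to ase, by library (rows: antibody, treatment and replicate) and distance from the start of y in kb. Circle area is proportional to the fold enrichment, and bars below mark annotated genes, the 5 members in black. All 3 insulator proteins share the site just past y, the M1BP rows are empty, and 3 of the 31 peaks lie to the right of lncRNA:yar.

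Su(Hw) had folds at the site beside y of 13.2 and 14.5 in the M1BPKD libraries, against 16.4 and 10.5 in the mock libraries. This fold enrichment is the authors' ChIP signal over control, with no scaling from one library to another. The M1BPKD values lie within the range of the mock values. Within its own list the peak stood at percentiles of 76.3 and 74.3 in M1BPKD cells and of 76.8 and 46.8 in mock cells, where 100 is the highest fold of a list. So by rank it was a middle to upper Su(Hw) peak, and the mock replicates lay farther apart than the M1BPKD replicates.

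Mod(mdg4) had folds there of 14.4 and 10.8 in the M1BPKD libraries, against 22.4 and 14.7 in the mock libraries. Its percentiles were 96.4 and 93.8 in M1BPKD cells and 95.2 and 81.7 in mock cells. Both M1BPKD folds lie below both mock folds, while the percentile was 81.7 or more in each list. The -log10 q went the other way, at 178 and 140 in M1BPKD against 82.1 and 108 in mock. How many other Mod(mdg4) sites had folds in the same order was not counted. The M1BPKD lists are longer (5575 and 4862 peaks, against 2999 and 3664 in mock cells), so neither folds nor percentiles can be read as a change.

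CP190 had folds there of 20.3 and 23.6 in M1BPKD libraries, against 29.5 and 18.0 in mock libraries. The M1BPKD values again lie within the range of the mock values. In the other experiment the folds were 4.56 and 6.76 in Cp190KD libraries, against 28.9 and 15.9 in mock2 libraries. These groups do not overlap, with means of 5.66 ± 1.56 in Cp190KD and 22.4 ± 9.18 in mock2 (SD, n = 2 libraries each). The number of other CP190 sites with folds in this order was not counted, so the gap is not shown to be particular to this site. The Cp190KD peaks were also narrower, at 486 and 524 bp, against 1258 and 905 bp in mock2. Their percentiles were 44.3 and 67.9 in the Cp190KD lists of 2031 and 2150 peaks, and 94.0 and 78.3 in the mock2 lists of 8443 and 8197 peaks. With unscaled folds and lists of such unequal length, neither folds nor percentiles measure the size of a change.

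**Figure D2:**
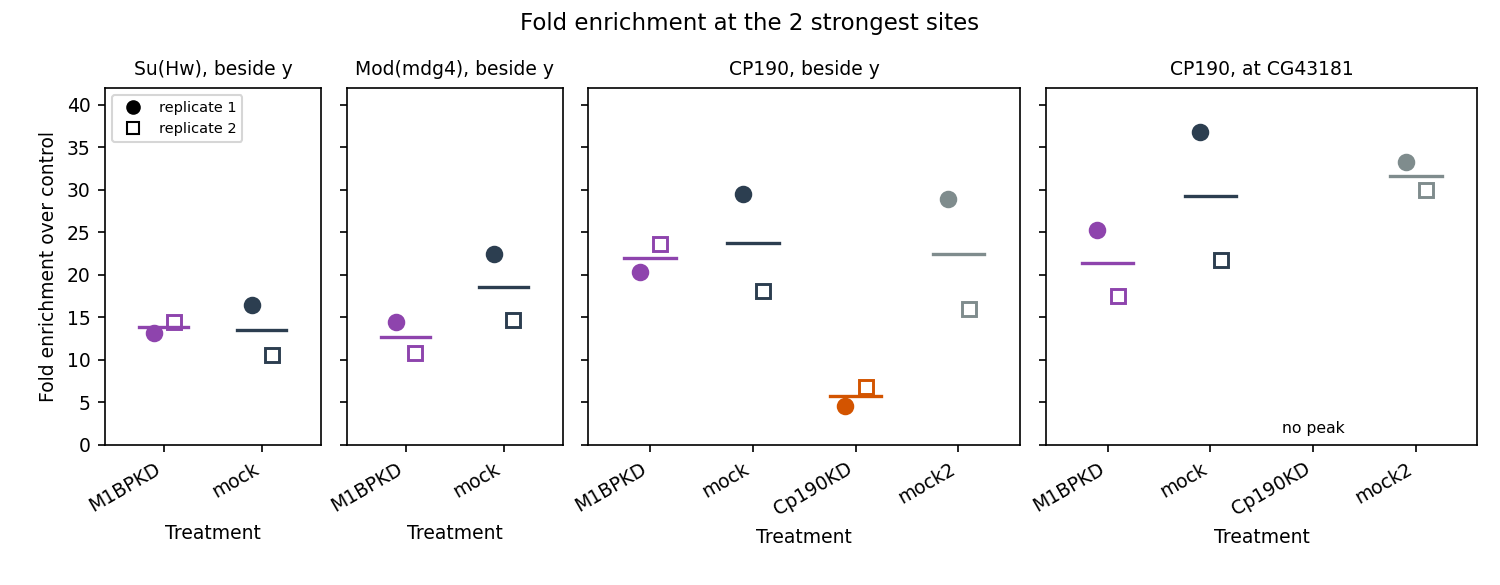
Fold enrichment over control (vertical axis) at the site beside y for 3 proteins, and at the CP190 site at CG43181, by treatment. Points are single libraries and lines their mean. CP190 in Cp190KD cells stands at 4.56 and 6.76 beside y and has no peak at CG43181.

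A site is called retained when it had a peak in both mock and both knockdown lists, lost when it had one in both mock lists and in neither knockdown list, and gained in the opposite case. The site beside y was retained in all 4 comparisons that apply to it. For Su(Hw) after M1BP knockdown 99.0% of all mock sites were retained, for Mod(mdg4) 90.1% and for CP190 92.1%, so those 3 calls match the background. No site of the window was lost after M1BP knockdown, against 0.427% of Su(Hw), 3.87% of Mod(mdg4) and 4.26% of CP190 sites genome-wide, and none was gained by CP190 (3.58% genome-wide) or Mod(mdg4) (7.74%). After CP190 knockdown 22.2% of the 7788 CP190 sites bound in both mock2 libraries were retained and 71.0% were lost, while 0.0569% of sites were gained and none of them here. Among the 1144 CP190 sites with a mean mock2 percentile at least as high as that of the site beside y, 958 (83.7%) were retained. Among the 2389 CP190 sites that overlapped both Su(Hw) and Mod(mdg4) in mock cells, 30.2% were retained. Its set of 16 lists was shared by 581 of the 14164 sites (4.10%), so the site beside y is 1 of many with this occupancy. Of the 4309 Su(Hw) sites of mock cells, 2259 (52.4%) overlapped CP190 and Mod(mdg4) but not M1BP, and on the X chromosome 51.2% of 869.

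The 4 Su(Hw) summits at the site beside y fell within 4 bp of each other, 326 to 330 bp past the end of y. The Mod(mdg4) summits lay 365 to 402 bp past it, beyond every Su(Hw) summit, and the CP190 summits 320 to 410 bp. Over the 2213 sites with Su(Hw) and Mod(mdg4) in all 4 lists each, the median spread of the Su(Hw) summits was 27 bp, and 46 sites (2.08%) had a spread of 4 bp or less. The distance between the median Su(Hw) and Mod(mdg4) summits was 47.5 bp beside y, against a median of 16 bp over those sites, and 16.1% of them had one as large. These are descriptions of 1 site, and the difference was not tested. In M1BPKD replicate 1 Mod(mdg4) had a further, weak peak at X 362218 to 362480 (fold 3.51), inside the same site and across the start of lncRNA:yar.

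**Figure D3:**
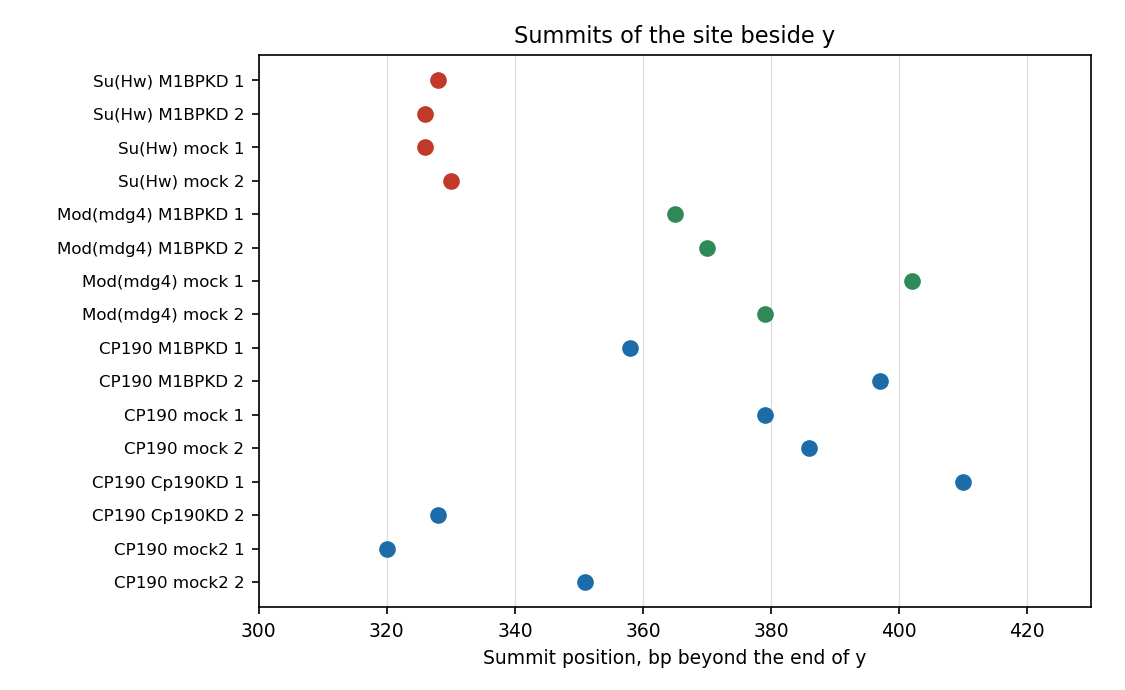
Position of the summit at the site beside y, in bp past the end of y, in each of 16 libraries (rows). The Su(Hw) summits lie at 326 to 330 bp, the Mod(mdg4) summits at 365 to 402 bp, and the CP190 summits are spread over both.

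In the mock and mock2 libraries the CP190 site with the highest fold in the window lay on the other side of y and carried no Su(Hw), Mod(mdg4) or M1BP peak. It spanned X 350171 to 351895, overlapping the end of CG3777 and CG43181, with a median summit 22 bp past the end of CG43181 and 5.35 kb before the start of y. CP190 had folds there of 25.3 and 17.4 in M1BPKD libraries, against 36.8 and 21.7 in mock libraries. The groups overlap, and the site was retained, as were all 677 CP190 sites with as high a mean percentile in mock cells. In mock2 cells the folds were 33.2 and 29.9, and neither Cp190KD library had a peak, so the site was lost.

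That loss took in one of the highest CP190 peaks of mock2 cells. The site at CG43181 stood at percentiles of 96.7 and 95.7 in the mock2 lists. Of the 254 CP190 sites with a mean percentile at least as high, 16 (6.30%) were lost and 230 (90.6%) were retained, against 71.0% lost over all sites. Among these 254, 4 of 97 sites with Su(Hw) and Mod(mdg4) were lost (4.12%), and 11 of 93 with none of Su(Hw), Mod(mdg4) and M1BP (11.8%). Over all strengths the lost shares of these kinds of site were 60.7% of 2389 and 81.0% of 2119.

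Since both CP190 sites were read in the same libraries, their folds can be set side by side within a library. The fold beside y was 0.802 and 1.35 times that at CG43181 in the M1BPKD libraries, and 0.801 and 0.832 times in the mock libraries. It was 0.870 and 0.532 times in the mock2 libraries. In 5 of these 6 libraries the CG43181 site was thus the stronger, but it was the site beside y that kept a CP190 peak in both Cp190KD libraries.

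**Figure D4:**
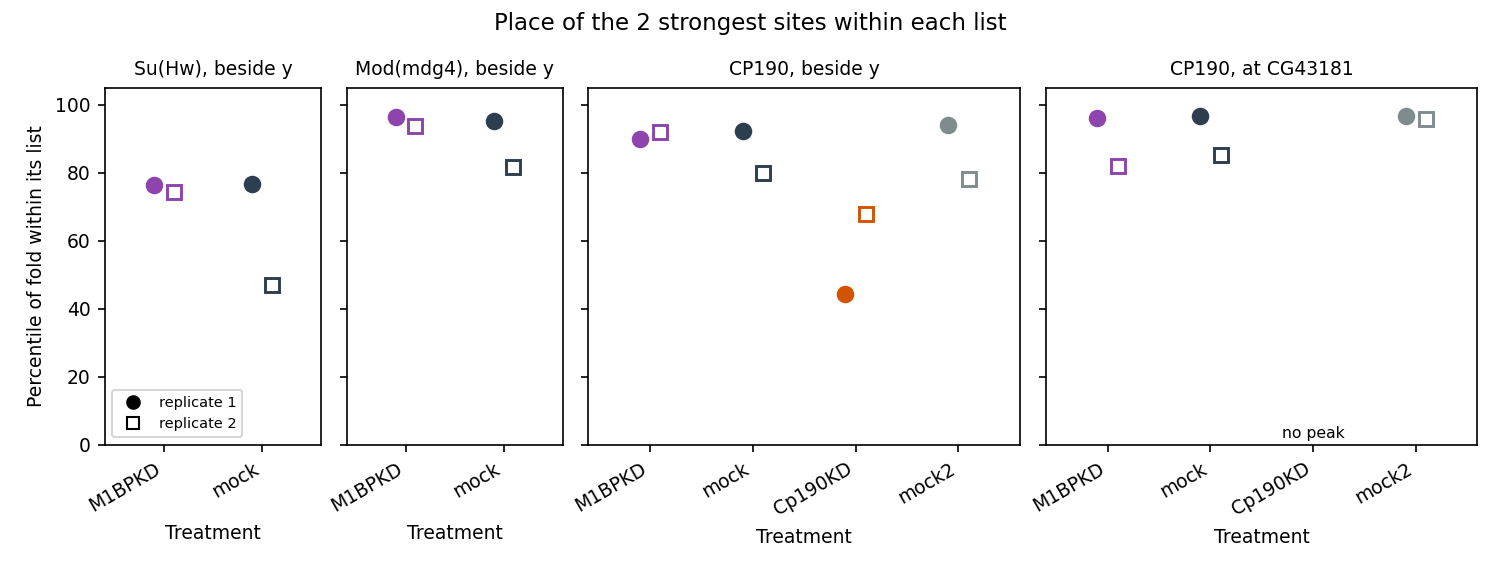
Percentile of the fold within its own list (vertical axis, 100 is the highest) at the same sites, by treatment, each point a library. The CG43181 site stands at 96.7 and 95.7 in mock2 and has no peak in Cp190KD, where the site beside y stands at 44.3 and 67.9.

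A weak site between these strong ones, at X 353520 to 353975, was gained by Su(Hw) after M1BP knockdown. It lay 2.77 kb before the start of y and 422 bp past CG43182. Su(Hw) had folds of 4.57 and 5.73 in the M1BPKD libraries, with -log10 q of 22.9 and 29.6, and no peak in the mock libraries. Both M1BPKD libraries thus had a peak well past the authors' threshold of q = 0.05, where neither mock library passed it. The -log10 q of Su(Hw) ran higher in M1BPKD libraries at the site beside y too, although the folds there overlap. It was 271 and 244 there in M1BPKD, against 138 and 88.9 in mock, so q is not compared between the groups. Of all 5783 Su(Hw) sites with a peak in at least 1 of the 4 lists, 9.56% were gained. By mean percentile in the M1BPKD lists (31.4) the site was among the 22 highest of 553 gained sites. Weak peaks of the partner proteins were already listed there in single mock libraries. CP190 had a fold of 4.66 in mock replicate 1 and of 3.86 in mock2 replicate 1, and Mod(mdg4) one of 3.82 in mock replicate 2. No M1BPKD library had a CP190 or Mod(mdg4) peak at this site, and M1BP had none in any library. The M1BPKD lists of Su(Hw) were longer, with 5577 and 5324 peaks against 4579 and 4544 in mock cells. The peaks ranked 3917 and 3570 by fold in the M1BPKD lists, so they remain when each list is cut to the 4544 peaks of the shortest. Such a cut cannot add a peak to a mock list, so it does not show whether Su(Hw) was absent there. Whether the mock libraries had weaker signal at this site that was not called was not tested.

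From lncRNA:yar to the far side of ase the window was almost empty. No peak of any list touched ac (X 370031 to 370947), sc (X 396060 to 397497), l(1)sc (X 409721 to 410817) or ase (X 460747 to 463176). A stretch of 44.9 kb from the site beside y onwards, which holds ac and sc, had no peak in any of the 24 lists, and a stretch of 49.1 kb, which holds l(1)sc and the pepsinogen-like gene Pgcl, had none either. On the X chromosome the median stretch between neighbouring sites was 4.51 kb, and 42 (1.58%) and 31 (1.16%) of 2661 stretches were at least as long as these. The site between them, at X 407451 to 407861 and 2.06 kb before l(1)sc, had CP190 alone and in the mock2 libraries alone. Its folds there were 5.06 and 4.32, and with no peak in Cp190KD cells it counts as lost, like 71.0% of such sites. The first mock set had no peak there, so the peak lists of the mock sets differ at this site. The peaks are weak, and whether binding itself differs was not tested. The last site, at X 456999 to 457145, was a single Mod(mdg4) peak in M1BPKD replicate 2 with a fold of 2.09 and a -log10 q of 1.98, 3672 bp before ase.

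The members differed in how far the nearest site lay from them. The nearest CP190 site bound in both mock libraries overlapped y and lay 7.54 kb from ac, 33.6 kb from sc, 47.2 kb from l(1)sc and 13.0 kb from ase, against a median of 0.969 kb over all genes. In mock2 libraries the nearest one overlapped y and lay 7.63 kb from ac, 9.95 kb from sc, 1.86 kb from l(1)sc and 13.1 kb from ase, against a median of 0.582 kb. The distances from sc and l(1)sc thus differ between the mock sets, through the weak site before l(1)sc. For Su(Hw) in mock libraries these distances were 0 kb for y, 8.04 kb for ac, 34.1 kb for sc, 47.7 kb for l(1)sc and 30.9 kb for ase, with a median of 11.4 kb over all genes. Per 100 kb the window held 1.58 CP190, 0.789 Su(Hw) and 0.789 Mod(mdg4) sites of mock cells, against 5.91, 3.69 and 2.22 on the X chromosome.

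M1BP had no peak in the window in any library, M1BPKD, mock, Cp190KD or mock2. The X chromosome held 485 M1BP sites bound in both mock libraries, or 2.06 per 100 kb. In the 6 libraries other than M1BPKD, the nearest M1BP peak lay 75.3 to 76.9 kb before y on one side and 13.8 to 14.0 kb past ase on the other. With 0 M1BP sites in the window, none could be classed. Genome-wide 35.4% of M1BP sites were lost, 58.1% retained and 0.843% gained after M1BP knockdown, and 5.92% lost, 88.4% retained and 2.86% gained after CP190 knockdown. M1BP could thus not be seen to change at any of the 5 sites, and M1BP knockdown is read here through the other proteins.

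The number of peaks in the window per library was the value tested over libraries. CP190 had 1 and 1 in Cp190KD libraries, against 4 and 3 in mock2 libraries, and Su(Hw) had 2 and 2 in M1BPKD against 1 and 1 in mock. Neither pair of groups overlaps. CP190 had 2 and 2 in M1BPKD against 3 and 2 in mock, and Mod(mdg4) 2 and 2 against 1 and 2, so these groups overlap. By a two-sided exact permutation test p was 0.33 for each of the first 2 comparisons and 1 for the others, M1BP included. With 2 libraries against 2 it cannot go below 0.33, and the adjusted p over the 6 comparisons was 1 for every one. None passed. The difference for CP190 after CP190 knockdown was -2.5 peaks, but -1 with lists of equal length and -6 with genes widened by 20 kb. Within the genes themselves (widened by 0 kb), Mod(mdg4) averaged 2 peaks in M1BPKD and 1 in mock, so those groups no longer overlap (exact permutation p = 0.33). The second M1BPKD peak lay in different places, at lncRNA:yar in replicate 1 (fold 3.51) and before ase in replicate 2 (fold 2.09). Over the whole genome the Mod(mdg4) lists did not overlap in length either, with 5575 and 4862 peaks in M1BPKD against 2999 and 3664 in mock. Over the whole genome CP190 had 2031 and 2150 peaks in Cp190KD against 8443 and 8197 in mock2, and M1BP 1776 and 1699 in M1BPKD against 2980 and 2781 in mock.

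Other genes of pigmentation and of neural precursor choice were read in the same way, from 2 lists. A gene counted where a site bound in both mock libraries lay inside it or within 10 kb. Of the 5 members, y and ac counted for Su(Hw), Mod(mdg4) and CP190 through the site beside y, y counted for CP190 also through the site at CG43181, and none counted for M1BP. Over all genes the shares were 46.3% for Su(Hw), 34.9% for Mod(mdg4), 83.4% for CP190 and 51.7% for M1BP. Of 18 yellow family and pigment genes 7 counted for Su(Hw), 5 for Mod(mdg4), 16 for CP190 and 11 for M1BP. By the mean of the 2 mock libraries, the highest Su(Hw) folds there were at ple, which encodes tyrosine hydroxylase (16.7 and 26.4), and at yellow-k (21.3 and 21.4). Those genes also led for Mod(mdg4), with folds of 18.8 and 28.0 at ple and of 20.6 and 19.3 at yellow-k. By the same mean, CP190 was highest at the neighbours yellow-e, yellow-e2 and yellow-e3, which share folds of 30.5 and 32.2, followed by yellow-k (32.9 and 28.6). M1BP was highest by mean at yellow-f and yellow-f2, which share folds of 28.0 and 27.5, followed by yellow-g (28.3 and 26.6).

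Of 22 proneural and Notch lateral inhibition genes 6 counted for Su(Hw), 3 for Mod(mdg4), 13 for CP190 and 12 for M1BP. Members of a list can share sites, so these counts are no independent draws, and no test was made. A gene can have several sites per antibody, and 1 pair of folds is given, so folds of different proteins may come from different sites. At phyl, a neural precursor gene downstream of the proneural proteins, CP190 had mock folds of 50.1 and 43.8, Su(Hw) 13.0 and 13.5, and Mod(mdg4) 19.5 and 16.2. There were 4 CP190, 4 Su(Hw) and 3 Mod(mdg4) sites in or near phyl. N, which encodes the Notch receptor, had CP190 folds of 40.3 and 46.6 and Su(Hw) folds of 11.6 and 9.39. For M1BP the highest folds by mean were at pnr, a GATA factor gene that acts on ac and sc (25.9 and 28.0), and N had 22.2 and 22.1.

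The sites most like the one beside y were found over all 24 lists by the mean absolute difference in percentile, with 0 where there is no peak. The closest lay 518 bp from CG10479 on 3L (3.07 points), within Arms on 2R (3.82), within the homeobox gene Dbx on 3L (3.88), 475 bp from the cell death gene hid on 3L (4.02) and within kst, which encodes a spectrin, on 3L (4.10). Over all 14163 other sites the median difference was 50.5 points.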

How the data were processed

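Peak lists of 24 ChIP-seq libraries from Kc167 cells were analysed. A further 8 input libraries were not analysed here. The submitters' processing notes name MACS2 2.2.5, Picard 2.20.2, SAMtools 1.9 and Bowtie2 2.3.5. For options, genome build and read depth, the sources used here give nothing. From the peak names, the authors called peaks library by library, without pooling. The deposited fold is the peak caller's ratio of ChIP to control, unscaled between libraries, and it served to describe and rank peaks within a list. The deposited -log10 p and -log10 q are the peak caller's, with a smallest -log10 q of 1.30. The deposited score was not used. The lists carry the sequence names of dm6, and their highest chrM position (19524) fits that build, whose RefSeq gene table, without strand or exons, gave gene names and ends. No sequence was read.

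Peaks that shared 1 bp or more were joined into sites, over 24 lists to number sites and over 4 lists to class them. The code was tested on simulated data. Peak numbers were compared by exact permutation, two-sided, with Benjamini-Hochberg adjustment. Alternatives were peaks of -log10 q of 10 or more, genes widened by 0 or 20 kb, summits within 100 bp, at least 50% overlap, lists of equal length, a replicate block and leaving out each library. Named genes are the 5 members, genes holding or nearest to a summit, up to 4 genes of each list with the highest mean mock fold per antibody, and genes at the 5 most alike sites. Some genes picked by this rule are left out of the text. The members and lists were chosen with earlier results of these data known. The lists held 1699 to 8443 peaks each, but the window held only 0 to 4 peaks per library. These low counts and the 2 libraries per group limit the precision. p-values measure the spread between these libraries, which may be technical. Python 3.11.15, pandas 2.3.3 and NumPy 2.4.6 were used.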

Additional observations from a re-analysis of the deposited data

How the results depend on the processing

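Over 28 results and 286 alternative values, 265 kept their direction or stayed within 1.5 times of the value reported, 21 moved and 0 turned round. A difference in peak number counted as kept at any size if its sign held. M1BP, with 0 peaks in the window, could move only with genes widened by 20 kb. The tally is thus no measure of how stable the results are. In the alternatives run, the site beside y stayed the single Su(Hw) site of the window shared with CP190 and Mod(mdg4). CP190 sites lost after CP190 knockdown numbered 2, or 1 with a -log10 q minimum of 10, with genes widened by 0 kb and with lists of equal length, 5 with genes widened by 20 kb, and 2 to 3 when a library was left out. CP190 sites retained after M1BP knockdown numbered 2, or 1 at 0 kb and 4 at 20 kb. The Su(Hw) site gained after M1BP knockdown lies outside the genes, so at 0 kb the gained count and the difference in peak number were 0. At 20 kb M1BP had 3 sites lost after M1BP knockdown (a difference of -3 peaks) and 3 retained after CP190 knockdown, against 35.4% and 88.4% genome-wide. The difference in CP190 peak number after CP190 knockdown, -2.5, was -1.5 with a -log10 q minimum of 10, -1 at 0 kb and with lists of equal length, and -6 at 20 kb. That after M1BP knockdown, -0.5, was 0 with a -log10 q minimum of 10 and at 0 kb, -1 at 20 kb, and -1 to 0 with a library left out. That of Mod(mdg4), 0.5, was 0 with a -log10 q minimum of 10 and with lists of equal length, 1 at 0 kb, and 0 to 1 with a library left out. Leaving out a library gave 0 to 1 lost CP190 sites (1 without mock replicate 2), and 0 to 1 lost (1 without mock replicate 1) and 0 to 1 gained Mod(mdg4) sites (1 without either M1BPKD replicate) after M1BP knockdown. These changes follow from which peaks and libraries each alternative takes in.

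With the replicate block, libraries were paired by number and the exact permutation test flipped signs within pairs. The differences were -2.5 peaks for CP190 after CP190 knockdown and 1 for Su(Hw) after M1BP knockdown (exact permutation p = 0.5 each, the smallest that 2 pairs allow), and no call changed. The labels do not say whether same-numbered libraries share more than a number. Replicate differences in log2 fold correlated at -0.0143 to 0.166 across sites with a peak in all 4 lists, which cannot settle it. Read depth is not given, so whether sites without a peak lie under detection was not tested.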

Other observations

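Just outside the window, from 13.4 to 18.7 kb past ase, 3 M1BP sites stood in a row at ebo, CR18275 and CG3176. All 3 had M1BP peaks in both mock, both mock2 and both Cp190KD libraries and in neither M1BPKD library, which contrasts with the empty M1BP lists from y to ase. Genome-wide 35.4% of M1BP sites were lost after M1BP knockdown and 88.4% retained after CP190 knockdown. The peaks at these 3 sites ranked low in the mock lists, at percentiles of 17.0 to 39.7. At ebo M1BP had folds of 6.70 and 6.08 in Cp190KD libraries against 8.68 and 6.63 in mock2, and of 5.72 and 3.80 in mock. At CG3176 the folds were 9.22 and 7.64 in Cp190KD against 8.89 and 8.61 in mock2, and 6.92 and 9.02 in mock. CP190 kept its peaks at ebo in M1BPKD cells, where M1BP had no peak. Its folds were 9.75 and 14.4 in M1BPKD against 8.88 and 14.6 in mock libraries. Genome-wide 92.1% of CP190 sites were retained after M1BP knockdown. In Cp190KD cells the ebo site had a CP190 peak in replicate 2 alone (3.03), against 9.85 and 12.7 in mock2. CR18275 is annotated as a pseudogene, and whether its reads map to it alone was not tested.

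On the other side, inside CG3777 and 19.5 kb before y, lay a further CP190 site of the kind seen at CG43181, with no peak of another protein. Its folds were 28.3 and 32.3 in M1BPKD libraries against 35.0 and 35.0 in mock libraries. In mock2 libraries they were 34.3 and 28.5, at percentiles of 97.1 and 94.6, and neither Cp190KD library had a peak there. Genome-wide 71.0% of CP190 sites were lost after CP190 knockdown. Of the 254 sites with a mean mock2 percentile at least as high as that at CG43181, 6.30% were lost.

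At the site beside y, replicate 1 had the higher fold in both mock sets for every insulator protein mapped. In mock cells these were 16.4 against 10.5 for Su(Hw), 22.4 against 14.7 for Mod(mdg4) and 29.5 against 18.0 for CP190, and in mock2 cells 28.9 against 15.9 for CP190. In M1BPKD cells replicate 1 was the lower for Su(Hw) and CP190 and the higher for Mod(mdg4). With 2 libraries a group, this spread is larger than the difference between the M1BPKD and mock means for Su(Hw) (13.8 and 13.5) and for CP190 (21.9 and 23.8).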
